A study of Mus musculus with 12 samples.

Results

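Transcripts of 10 genes of the ATF4 stress and amino acid response were followed in cultured mouse macrophages with and without a Klf6 deletion. The genes were Atf4, Ddit3, Ddit4, Trib3, Chac1, Asns, Sesn2, Psat1, Phgdh and Ppp1r15a. They were chosen by name with earlier results of these data known, so their counts set beside shares of all genes are descriptions. All 10 were measured in both deposited tables, which held 22896 genes for untreated and 21437 for TNF-treated cells (24465 in all). The cells were bone marrow-derived macrophages, a culture model in which marrow progenitors mature outside the animal. The control genotype, Lyz2cre, carries the Cre recombinase driven by the gene of lysozyme 2, which is active in cells of the myeloid lineage. The other genotype, Klf6fl/fl:Lyz2cre, has the same Cre and floxed alleles of Klf6, a gene for a zinc-finger transcription factor, and is called Klf6-deleted here. Both genotypes thus carry Cre. Cells of each were left untreated or received 10 ng/ml of the inflammatory cytokine TNF for 6 h, which gives 4 groups of 3 libraries. The labels give neither the strain, age and sex of the mice nor the floxed exons. Whether the 3 libraries per group stem from different mice or cultures is not stated, so the p-values reflect the spread among these libraries alone, which may be technical.

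ATF4 is a basic leucine zipper transcription factor whose protein is made mainly when the initiation factor eIF2 is phosphorylated, as happens when amino acids run short, when proteins misfold in the endoplasmic reticulum or when mitochondria are under stress. It then raises genes for amino acid uptake and synthesis and for the charging of tRNA, together with genes that slow growth or turn the response off again. Much of its control lies in translation, which transcript levels do not show. In macrophages this response supplies amino acids to activated cells, and CHOP, the product of Ddit3, has been linked to macrophage death in atherosclerotic plaques.

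Each library had between 16.9 and 23.4 M reads on genes. Klf6 was at 6894 to 7405 normalized counts in untreated Klf6-deleted libraries against 9984 to 10315 in Lyz2cre libraries, and at 4133 to 4211 against 7155 to 7622 with TNF, so every library matched its genotype label in direction (limma, Benjamini-Hochberg adjusted p = 7.15e-10 and 4.34e-11). A gene-level count also covers exons outside the floxed part, so it does not show how far Klf6 was deleted. Normalized counts are reads divided by 1 factor per library, and the tables were normalized separately, so levels set across them are descriptions. Scaling to total reads instead moved the median log2 change of all genes by 0.13 without TNF and by 0.33 with TNF, toward higher values in Klf6-deleted cells. With that scaling the share of calls that were higher went from 48.5% to 68.0% without TNF and from 46.2% to 80.4% with TNF. Marker genes of other cells moved with the genotype. Over all genes tested, 27.6% were called higher and 29.3% lower in Klf6-deleted cells without TNF, and 26.5% and 30.8% with TNF. All 10 of the 10 stromal markers tested (of 12 listed) rose in untreated Klf6-deleted cells, where the 12 summed to 0.242 to 0.258% of all values against 0.0104 to 0.0127% in Lyz2cre cells. With TNF 7 of 8 rose, and the sums were 0.0168 to 0.0189% against 0.00230 to 0.00341%. No stromal marker was at 0 in all libraries of a group. Some, such as Lepr without TNF, passed the filter of 1 CPM in 3 libraries only through the Klf6-deleted group. Of the 10 macrophage markers, 9 fell and 1 rose without TNF (summed share 0.773 to 0.826% against 1.32%), while 5 rose and 5 fell with TNF. Scaled to total reads, 6 fell, 1 rose and 3 were not called without TNF. None of the 10 was at 0 in a group, so defining markers of the labelled cell type were present. All 6 monocyte markers rose without TNF and 1 rose and 2 fell with it. Of the markers tested without TNF, 4 of 4 endothelial ones rose, 3 of 8 granulocyte and progenitor ones rose and 5 fell. Of 2 lymphocyte markers tested 1 rose and 1 fell, and no dendritic cell marker of 6 was high enough to test. The 9 granulocyte and progenitor markers summed to 0.0518 to 0.0576% of values in untreated and 0.00124 to 0.00137% in TNF-treated Lyz2cre libraries. In Klf6-deleted libraries these sums were 0.0443 to 0.0466% and 0.000984 to 0.00122%. The untreated and TNF-treated libraries thus also differed in markers of other cells. The part of other cells in the results below was not tested, and in bulk RNA fewer cells of a type and less RNA per cell cannot be told apart.

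Without TNF, every gene of the group was higher in Klf6-deleted cells. Here and below, rose and fell mean higher and lower in Klf6-deleted than in Lyz2cre cells of the same treatment. All 10 of 10 rose (limma on log2(value + 1), Benjamini-Hochberg adjusted p below 0.05 over 12715 genes), against 27.6% of all genes tested that were called higher and 29.3% called lower. Their median log2 change was 1.46, from 0.19 for Ppp1r15a to 2.43 for Ddit4, beside -0.01 over all genes tested. The libraries of the genotypes did not overlap for 9 of the 10, against 62.3% of all genes, of which the higher ones made up 30.1% and the lower ones 32.2% of those tested. The exception was Ppp1r15a. The largest changes were in Ddit4, an inhibitor of mTORC1 signalling, at 5.40-fold, and in Chac1, Phgdh and Trib3 at 3.52- to 3.68-fold. Because 1 is added before the log2, fold changes of genes with few reads, such as Chac1, are understated. The stromal and monocyte markers given above rose in the same libraries.

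With TNF the genes no longer moved one way. Ddit3, Ddit4, Trib3, Sesn2 and Ppp1r15a were higher in Klf6-deleted cells (5 of 10, against 26.5% of 11717 genes called higher), and Atf4 and Asns were lower (2 of 10, against 30.8% called lower). Chac1, Psat1 and Phgdh did not pass the test (limma, adjusted p = 0.0660, 0.853 and 0.0976). The median log2 change was 0.27, beside -0.01 over all genes tested. The genotypes did not overlap for 8 of the 10, against 63.2% of all genes (29.9% higher and 33.3% lower). Chac1 was among these 8 although it did not pass the test. Scaled to total reads, Atf4 turned to a log2 change of 0.18 (limma, adjusted p = 0.00195) and Phgdh passed the test at 0.57, while the call of Asns kept its direction at -0.73. The median over all genes at that scaling was 0.32.

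The genotype difference itself changed with TNF for most of the group. The untreated and TNF-treated libraries also differed in markers of other cells, given above, and the part of this in the contrast was not tested. The contrast of the difference with TNF against the difference without it was negative for 8 of 10 genes (limma over 12 libraries, adjusted p below 0.05), against 24.9% of 13062 genes that were negative, 24.1% that were positive and 48.9% in either direction. Its median over the 10 was -1.35, beside 0.01 over all genes. Asns and Chac1 had the most negative values, at -2.63 and -2.45. For Sesn2 the genotype difference was 0.82 without and 0.82 with TNF (contrast 0.0016, 95% interval -0.29 to 0.29, adjusted p = 0.993). For Ppp1r15a the contrast was 0.10 (95% interval -0.10 to 0.30, adjusted p = 0.399), and it passed the test at 0.30 when scaled to total reads (adjusted p = 0.0168).

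**Figure D1:**
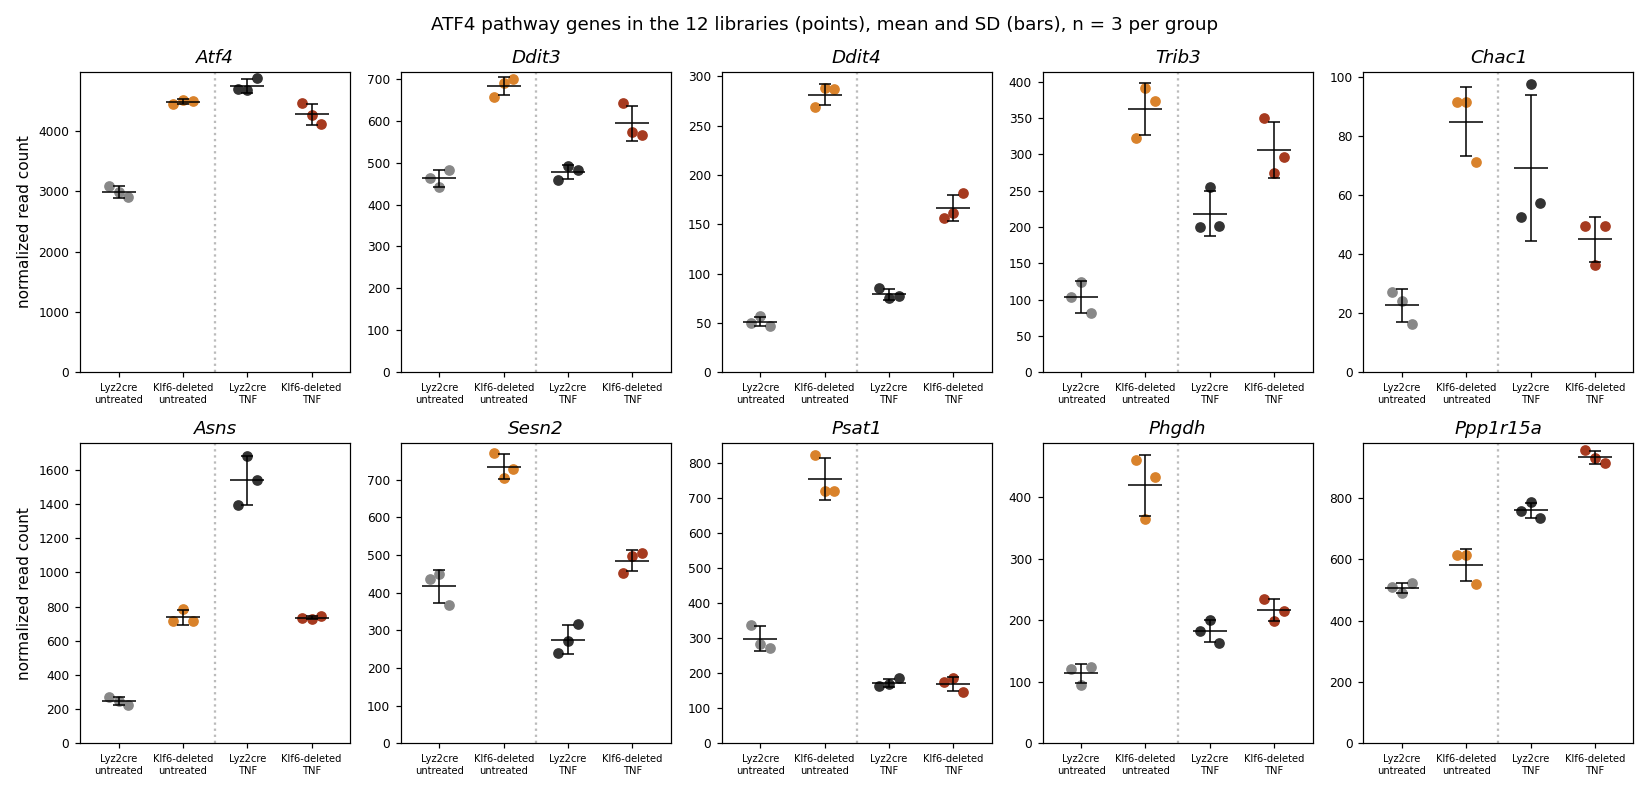
Normalized read count of each of the 10 genes (vertical axis, linear from 0) in the 12 libraries, 1 panel per gene, with points for libraries and bars for the mean and SD of n = 3, and a dotted line between the separately normalized tables. The untreated Klf6-deleted libraries lie above the untreated Lyz2cre libraries in every panel except for an overlap in Ppp1r15a, while with TNF the order of the genotypes differs from gene to gene.

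**Figure D2:**
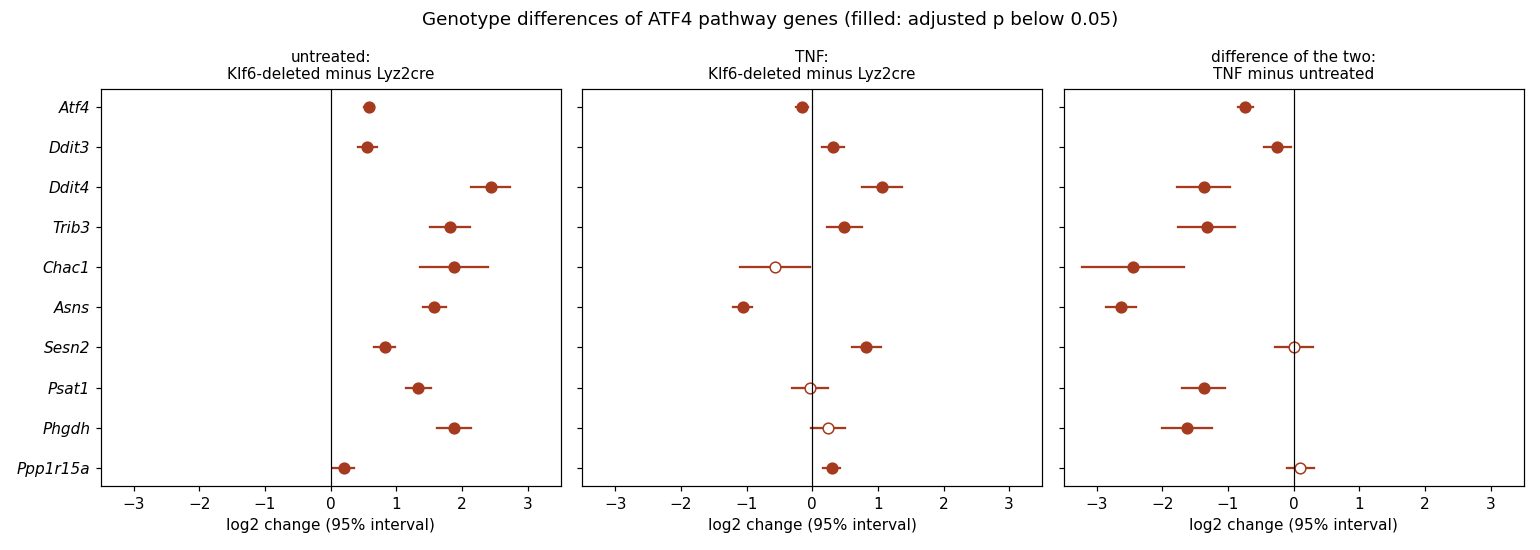
Log2 change of each gene (points) with its 95% interval (lines) for Klf6-deleted minus Lyz2cre cells without TNF (left), with TNF (middle), and for the difference of these differences (right), filled where the limma adjusted p is below 0.05. All 10 points are filled and to the right of 0 on the left, 5 are filled to the right and 2 to the left of 0 in the middle, and 8 are filled to the left of 0 on the right.

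Atf4 (ENSMUSG00000042406, chromosome 15, 80255184 to 80257541 on the plus strand of GRCm38) encodes the factor that heads the response. It was at 3091, 2988 and 2899 normalized counts in the untreated Lyz2cre libraries and at 4444, 4519.9 and 4499 in the untreated Klf6-deleted libraries. The difference of 1.50-fold was far larger than the spread within groups (log2 change 0.58, standard error 0.0377, limma adjusted p = 2.22e-10). With TNF the order of the genotypes was the opposite. The Lyz2cre libraries were at 4689.8, 4681 and 4881 and the Klf6-deleted libraries at 4456, 4265 and 4114, without overlap, 1.11-fold lower (log2 change -0.15, standard error 0.0445, limma adjusted p = 0.00835). This small fall depended on the scaling, as given above. The 2 genotype differences themselves differed by -0.74 (standard error 0.0556, limma adjusted p = 1.16e-09), and this contrast kept its sign and its call under every alternative tried. Across tables, Lyz2cre cells had 1.59 times the untreated level with TNF, and Klf6-deleted cells 0.953 times. Per kilobase of exon, Atf4 had the highest level of the 10 genes in each of the 4 groups, from 1269 to 2015 normalized counts per kb.

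Ddit3 (ENSMUSG00000025408, chromosome 10, 127290774 to 127296288, plus strand) encodes CHOP, a factor induced by ATF4 that promotes cell death under lasting stress. Its untreated levels were 464, 441 and 482 in Lyz2cre and 658, 689 and 699 in Klf6-deleted libraries, 1.47-fold higher without overlap (log2 change 0.56, limma adjusted p = 8.51e-07). With TNF they were 459.5, 491 and 483 against 643, 573 and 567, 1.24-fold higher, again without overlap (log2 change 0.31, limma adjusted p = 0.00267). Ddit3 was thus higher in Klf6-deleted cells in both conditions. Its difference was smaller with TNF by a narrow margin. The contrast of -0.25 had an adjusted p of 0.0438 (limma). The call was lost with scaling to total reads (contrast -0.05, adjusted p = 0.676), without the filter on low values, with the replicate block and when any of 8 single libraries was left out (adjusted p 0.0641 to 0.0987). These 8 were replicates 1 and 2 of untreated Lyz2cre cells and replicates 2 and 3 of each other group. Of the 1713 exon bases of Ddit3, 105 are shared on the same strand with a second gene model of that name (ENSMUSG00000116429), which has no row in the tables used here. Also, 68 are shared with Mars and 13 with Gm4189 on the opposite strand, and the use of strand in the counting is not stated. The level of Ddit3 is uncertain to that extent.

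Asns, Psat1 and Phgdh encode enzymes that make amino acids. Asns (ENSMUSG00000029752, chromosome 6, 7675169 to 7693254, minus strand) encodes asparagine synthetase, which makes asparagine from aspartate with glutamine as the nitrogen donor. The untreated Lyz2cre libraries had 270.3, 248 and 224 normalized counts and the untreated Klf6-deleted libraries 714, 788 and 714, 2.98-fold higher (log2 change 1.58, standard error 0.0832, limma adjusted p = 1.35e-11). With TNF the genotypes changed places. The Lyz2cre libraries had 1396.5, 1683 and 1539 and the Klf6-deleted libraries 733, 729 and 747, 2.08-fold lower (log2 change -1.06, standard error 0.0678, limma adjusted p = 1.12e-09). The contrast between the conditions was -2.63 (standard error 0.109, limma adjusted p = 1.15e-13), the most negative of the 10. Across tables the TNF level was 6.22 times the untreated level in Lyz2cre cells and 0.997 times in Klf6-deleted cells, in which the libraries of the 2 conditions overlapped. With total-read and TMM scaling the latter ratio was 1.15 and 1.22. The level of Asns in Klf6-deleted cells lay between those of the 2 Lyz2cre groups with and without TNF.

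Phgdh and Psat1 encode the first and the second enzyme of serine synthesis from a glycolytic intermediate. Phgdh (ENSMUSG00000053398, chromosome 3, 98313170 to 98339990, minus strand) was at 121, 95.6 and 125 in untreated Lyz2cre and at 461, 364 and 433 in untreated Klf6-deleted libraries, 3.66-fold higher (log2 change 1.87, limma adjusted p = 3.21e-10). With TNF it was at 183, 201 and 164 against 234, 199 and 215, and the genotypes overlapped (log2 change 0.24, 95% interval -0.01 to 0.50, limma adjusted p = 0.0976). A pseudogene, Phgdh-ps1, could share reads with it. Psat1 (ENSMUSG00000024640, chromosome 19, 15904678 to 15947337, minus strand) was at 339, 285 and 273 in untreated Lyz2cre and at 824, 722 and 719 in untreated Klf6-deleted libraries, 2.53-fold higher (log2 change 1.34, limma adjusted p = 2.61e-10). With TNF both genotypes were low and overlapped, at 163, 171 and 186 and 175, 188 and 148 (log2 change -0.03, 95% interval -0.31 to 0.24, limma adjusted p = 0.853). The contrasts between the conditions were -1.63 for Phgdh (limma adjusted p = 3.56e-07) and -1.37 for Psat1 (limma adjusted p = 4.48e-07). The 2 genes differed in their levels across tables. The TNF level of Psat1 was 0.579 times the untreated level in Lyz2cre and 0.225 times in Klf6-deleted cells, whereas for Phgdh these ratios were 1.60 and 0.515. Asns, Phgdh and Psat1, which serve related ends, therefore had 3 different patterns over the 4 groups.

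Ddit4 and Sesn2 encode proteins that restrain mTORC1, the kinase complex that drives growth when amino acids are plentiful. Ddit4, also known as REDD1 (ENSMUSG00000020108, chromosome 10, 59949669 to 59951834, minus strand), was at 50.3, 56.9 and 47.0 in untreated Lyz2cre and at 269, 288 and 287 in untreated Klf6-deleted libraries. This 5.40-fold rise was the largest of the group (log2 change 2.43, standard error 0.138, limma adjusted p = 3.51e-11). With TNF Ddit4 was at 85.5, 75.2 and 76.8 against 156, 162 and 182, 2.09-fold higher without overlap (log2 change 1.06, limma adjusted p = 1.09e-05), with a contrast of -1.37 (limma adjusted p = 7.20e-06). It was the largest rise of the 10 in both conditions. Sesn2 (ENSMUSG00000028893, chromosome 4, 132492032 to 132510501, minus strand) encodes sestrin 2, a sensor of leucine. It was at 435, 449 and 366 against 770.2, 705 and 728 without TNF (log2 change 0.82, limma adjusted p = 5.42e-08) and at 239, 271 and 316 against 453, 496 and 504 with TNF (log2 change 0.82, limma adjusted p = 4.90e-06). The genotypes did not overlap in either table. Across tables, the TNF level of Sesn2 was 0.660 times the untreated level in each genotype, and scaled to total reads 0.665 times in Lyz2cre and 0.760 times in Klf6-deleted cells. With TMM these ratios were 0.832 and 0.806, and the Lyz2cre libraries of the 2 conditions overlapped.

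Trib3 and Chac1 act downstream in the response. Trib3 (ENSMUSG00000032715, chromosome 2, 152337422 to 152344032, minus strand) encodes a pseudokinase that ATF4 and CHOP induce and that dampens ATF4 activity in turn. It was at 104, 125 and 80.9 in untreated Lyz2cre and at 322, 391 and 373 in untreated Klf6-deleted libraries, 3.52-fold higher (log2 change 1.82, limma adjusted p = 3.03e-09). With TNF it was at 199.9, 254 and 201 against 349, 274 and 295.5, 1.40-fold higher (log2 change 0.49, limma adjusted p = 0.00304). The genotypes did not overlap in either condition, and the contrast between the conditions was -1.33 (limma adjusted p = 2.57e-05). Chac1 (ENSMUSG00000027313, chromosome 2, 119351229 to 119354381, plus strand) encodes an enzyme that degrades glutathione. It had the lowest counts of the group, 27.4, 24.2 and 16.4 in untreated Lyz2cre and 91.7, 91.7 and 71.4 in untreated Klf6-deleted libraries, 3.68-fold higher (log2 change 1.88, standard error 0.247, limma adjusted p = 3.12e-06). It was also the only gene with a library below 1 CPM, at 0.79. With TNF its levels were 52.7, 97.8 and 57.3 in Lyz2cre and 49.5, 36.3 and 49.6 in Klf6-deleted libraries. All 3 Klf6-deleted libraries were below all 3 Lyz2cre libraries, but the Lyz2cre libraries were far apart. The log2 change of -0.57 (95% interval -1.10 to -0.03) had an adjusted p of 0.0660 (limma). It was -0.29 without Lyz2cre replicate 2, the highest, and -0.73 without Lyz2cre replicate 1, when it passed the test (adjusted p = 0.0337). The contrast between the conditions was -2.45 (standard error 0.371, limma adjusted p = 1.71e-05).

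Ppp1r15a (ENSMUSG00000040435, chromosome 7, 45522916 to 45526268, minus strand) encodes GADD34, the regulatory subunit that brings a phosphatase to eIF2 and so ends the block on translation. It had the smallest untreated change of the 10. The Lyz2cre libraries were at 509, 490.3 and 523 and the Klf6-deleted libraries at 613, 613 and 521, where replicate 3 lay within the range of the controls (log2 change 0.19, standard error 0.0748, limma adjusted p = 0.0336). This call was lost without Lyz2cre replicate 1 or 2 (adjusted p = 0.0637 and 0.0979) and without Klf6-deleted replicate 1 or 2 (adjusted p = 0.132 and 0.138). With TNF the libraries were at 757, 787 and 736 against 955, 931 and 914, higher without overlap (log2 change 0.30, limma adjusted p = 6.45e-04). Across tables Ppp1r15a was at 1.50 times the untreated level with TNF in Lyz2cre and at 1.60 times in Klf6-deleted cells. Its highest group mean was in TNF-treated Klf6-deleted cells. Its exons share 12 bases with Tulp2 on the opposite strand.

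The order of the 4 groups differed between genes and was set across separately normalized tables. Untreated Lyz2cre cells had the lowest mean for 8 of the 10 genes, Sesn2 and Psat1 being the exceptions, as deposited and with total-read or TMM scaling. As deposited, the lowest 2 groups overlapped for Ddit3, Ppp1r15a and Psat1, which for Psat1 were the TNF-treated groups of both genotypes. Under all 3 scalings Ddit4, Sesn2, Psat1 and Phgdh had their highest mean in untreated Klf6-deleted cells, Asns in TNF-treated Lyz2cre cells and Ppp1r15a in TNF-treated Klf6-deleted cells. The highest group of the other 4 genes turned with the scaling. Atf4 was highest in TNF-treated Lyz2cre cells as deposited and with TMM, but scaled to total reads it was highest in TNF-treated Klf6-deleted cells, at a mean of 260.2 CPM against 230.2 in TNF-treated Lyz2cre cells and without overlap. Ddit3 was highest in untreated Klf6-deleted cells as deposited, and in TNF-treated Klf6-deleted cells with total reads or TMM. Trib3 and Chac1 were highest in untreated Klf6-deleted cells as deposited and with total reads. With TMM Trib3 was highest in TNF-treated Klf6-deleted and Chac1 in TNF-treated Lyz2cre cells, in each case with libraries that overlapped those of untreated Klf6-deleted cells.

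Promoter sequences are shown for Asns, Chac1 and Trib3, the genes of the group that held a match to the core of the C/EBP-ATF response element, the composite site through which ATF4 and its partners act. RefSeq windows of GRCm38.p6, from 250 bases before to 50 after each transcription start, were found for all 10 genes (11 windows, since Psat1 has 2). The motif TGATGNAA was searched on both strands and is in capitals. All sequences read 5′ to 3′ along the gene's strand, so a match on the opposite strand appears as its reverse complement.
Asns promoter, chr6:7693160-7693459, minus strand: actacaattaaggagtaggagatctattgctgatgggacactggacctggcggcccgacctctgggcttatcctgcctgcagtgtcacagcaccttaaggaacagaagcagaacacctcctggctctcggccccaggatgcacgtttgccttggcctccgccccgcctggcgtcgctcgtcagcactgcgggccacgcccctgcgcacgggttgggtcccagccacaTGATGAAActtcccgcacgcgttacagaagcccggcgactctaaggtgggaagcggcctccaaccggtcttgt
Chac1 promoter, chr2:119350992-119351291, plus strand: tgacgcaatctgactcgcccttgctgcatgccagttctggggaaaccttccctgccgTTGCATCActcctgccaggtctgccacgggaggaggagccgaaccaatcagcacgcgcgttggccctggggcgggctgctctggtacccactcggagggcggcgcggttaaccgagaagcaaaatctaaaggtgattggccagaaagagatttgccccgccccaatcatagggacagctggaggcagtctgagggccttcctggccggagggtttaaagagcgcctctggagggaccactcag
Trib3 promoter, chr2:152344011-152344310, minus strand: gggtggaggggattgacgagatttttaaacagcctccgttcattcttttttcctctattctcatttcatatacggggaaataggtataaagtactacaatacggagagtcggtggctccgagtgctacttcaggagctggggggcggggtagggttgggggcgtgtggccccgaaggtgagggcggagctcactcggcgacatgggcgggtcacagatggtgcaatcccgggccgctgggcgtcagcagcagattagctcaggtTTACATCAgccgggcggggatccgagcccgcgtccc
The match of Asns, TGATGAAA, lies on the gene's own strand from 23 to 16 bases before the start. That of Chac1 lies on the opposite strand from 193 to 186 bases before the start and has the stricter form TGATGCAA, and that of Trib3 lies on the opposite strand from 15 to 22 bases after the start. TGATGNAA was in 3 of the 10 genes (3 of their 11 windows) against 3.97% of 32851 windows of the same length. TGATGCAA, which is 1 form of it, was in 1 of 10 genes (1 of 11 windows) against 0.895%. The GC box GGGCGG, which proteins of the Sp and Krüppel-like families can bind, was searched on both strands. It was in 6 of the 10 genes (Asns, Chac1, Ddit4, Psat1, Sesn2 and Trib3), or 6 of their 11 windows, against 35.7% of windows. The endoplasmic reticulum stress element (ERSE), searched on both strands, had no match in the 10 genes and a match in 0.119% of windows. A match is a run of letters and not a measured binding site. The 3 genes with a TGATGNAA match rose without TNF by 2.98-, 3.68- and 3.52-fold, and Ddit4, with no match in its window, rose by 5.40-fold.

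Amino acid transporters mostly rose without TNF and split with TNF. Over all genes tested, 27.6% were called higher and 29.3% lower without TNF, 26.5% and 30.8% with TNF, and 24.9% had a negative contrast. These shares stand beside the deposited-scale counts of this and the following lists. Scaled to total reads, 5122 of 12715 genes were called higher and 2408 lower without TNF (median log2 change 0.12). With TNF 7038 of 11717 were called higher and 1716 lower (median 0.32). The contrast was then positive for 4930 and negative for 2197 of 13062 genes. These values stand beside the total-read counts of the lists. Of 9 transporters tested (of 11 listed), 8 rose in untreated Klf6-deleted cells and 1 did not pass the test, with a median log2 change of 1.22. With TNF 4 rose and 5 fell, with a median of -0.33 (4 and 4, with a median of -0.0033, when scaled to total reads). The contrast between the conditions was negative for all 9 (7 of 9 when scaled to total reads). The 4 that rose were 2 when replicate 3 of either TNF-treated group was left out. Slc7a5, the transporter of leucine and other large neutral amino acids, was at 205, 238 and 219 in untreated Lyz2cre and at 639, 633 and 593 in untreated Klf6-deleted libraries, 2.81-fold higher (limma adjusted p = 2.88e-11). With TNF it was at 605, 747 and 662 against 250.3, 304 and 300.4, 2.35-fold lower (limma adjusted p = 2.08e-08). The arginine and lysine transporter Slc7a1 had the same turn, 2.43-fold higher without TNF and 2.38-fold lower with it (limma adjusted p = 6.99e-11 and 2.43e-10). So did Slc1a4, a carrier of alanine, serine and cysteine, at 5.46-fold higher and 2.46-fold lower (limma adjusted p = 1.20e-09 and 0.00177). The glycine transporter Slc6a9 rose 5.49-fold without TNF, from low counts of 12.4 ± 5.62 to 68.9 ± 10.8 (mean ± SD, n = 3; limma adjusted p = 2.83e-06). Slc6a9 passed the filter of 1 CPM in 3 libraries only through the Klf6-deleted group, so without TNF it could be called only as higher. With 1 library left out, 6 to 8 transporters were called higher without TNF. The neutral amino acid transporter Slc38a2 was 1.37-fold lower in TNF-treated Klf6-deleted cells (limma adjusted p = 3.43e-07).

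Of 11 further enzymes of serine, one-carbon, proline and sulphur amino acid metabolism tested without TNF, 9 rose and 1 fell (median log2 change 0.88). With TNF 3 of 10 rose and 2 fell (median 0.06), and scaled to total reads 5 rose and 1 fell. The largest untreated rises were in Aldh1l2, a mitochondrial folate enzyme (7.12-fold, limma adjusted p = 2.51e-07), and in Pycr1, which completes proline synthesis (6.02-fold, limma adjusted p = 1.60e-06). Both rested on low counts of 15.2 ± 8.01 and 11.5 ± 5.77 in untreated Lyz2cre cells (mean ± SD, n = 3). They passed the filter of 1 CPM in 3 libraries only through the Klf6-deleted group, so they could be called only as higher. With 1 library left out, 7 to 9 of these enzymes were called higher without TNF. Mthfd2, the mitochondrial folate enzyme that follows the serine hydroxymethyltransferase step, was well measured. It was at 369, 289 and 295 against 970.3, 1140.5 and 931 without TNF, 3.19-fold higher (limma adjusted p = 2.59e-11). With TNF it was at 2107, 2036 and 1933 against 1098, 1070.5 and 971, 1.94-fold lower (limma adjusted p = 8.96e-10), the same turn as that of Asns. Aldh18a1, which starts proline synthesis, was 2.75-fold higher without TNF and 1.40-fold lower with it (limma adjusted p = 2.78e-09 and 0.00663). Mthfd1l and Shmt1, also folate enzymes, were 1.88- and 1.78-fold higher with TNF (limma adjusted p = 3.60e-06 and 0.00223).

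The cytosolic aminoacyl-tRNA synthetases, which load amino acids onto tRNA, mostly rose without TNF. Of 20 genes 16 rose and the other 4 did not pass the test (median log2 change 0.35). With TNF 1 rose and 14 fell (median -0.32), and scaled to total reads 6 rose and 8 fell (median 0.01). At that scaling 7038 of 11717 genes rose and 1716 fell with TNF (median 0.32). The contrast between the conditions was negative for 15 of 20 under either scaling. Aars, for alanine, was at 2157, 2013 and 2065 against 3814, 3740.4 and 3743 without TNF, 1.81-fold higher (limma adjusted p = 2.29e-12). Cars, Mars and Yars, for cysteine, methionine and tyrosine, rose by 1.64-, 1.62- and 1.62-fold (limma, largest adjusted p = 2.44e-08). With TNF the largest falls were in Vars, Wars, Iars and Cars, by 1.64- to 1.77-fold on the deposited scale (limma, largest adjusted p = 3.45e-08).

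Among the other known outputs of ATF4, 9 of 13 rose and 1 fell without TNF, and 4 of 11 rose and 4 fell with TNF (7 and 2 scaled to total reads). Over all genes, 26.5% were called higher and 30.8% lower with TNF on the deposited scale. Scaled to total reads these were 7038 and 1716 of 11717 genes. Vldlr, a lipoprotein receptor, was at 18.6, 20.6 and 14.2 in untreated Lyz2cre and at 173, 139.6 and 181 in untreated Klf6-deleted libraries, 8.84-fold higher (limma adjusted p = 5.20e-10). Gdf15, a secreted stress cytokine, was at 269, 215 and 237 against 685, 815 and 764 without TNF, 3.13-fold higher, and at 10.9, 26.8 and 24.1 against 218, 248 and 228 with TNF, 11.5-fold higher (limma adjusted p = 2.43e-11 and 8.67e-09). Unlike Asns, it kept its direction with TNF. Jdp2, a repressor of the leucine zipper family, was 3.90-fold lower with TNF, at 2461, 2473 and 2612 in Lyz2cre and 626, 701 and 609 in Klf6-deleted libraries (limma adjusted p = 1.40e-13). Nupr1, a stress-induced chromatin protein, and Stc2, a secreted glycoprotein, rose 4.06- and 4.10-fold without TNF (limma adjusted p = 3.92e-09 and 9.12e-05). With TNF Nupr1 was 1.25-fold lower (limma adjusted p = 1.60e-04). Vldlr and Stc2 passed the filter of 1 CPM in 3 libraries without TNF only through the Klf6-deleted group, so they could be called only as higher. With 1 library left out, 6 to 9 of these other outputs were called higher without TNF. Pmaip1, a promoter of apoptosis, was 1.73-fold higher and Sesn3, a relative of Sesn2, 1.71-fold lower with TNF (limma adjusted p = 2.15e-05 and 9.20e-04).

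Of 5 partner and stress factors, Nupr1 included, 4 rose and 1 fell without TNF. Atf5, a relative of Atf4, rose 2.04-fold (limma adjusted p = 1.44e-11), and Cebpg, a dimer partner of ATF4, fell 1.31-fold (limma adjusted p = 4.56e-07). With TNF 2 rose and 1, Nupr1, fell (4 and 0 scaled to total reads). Atf3, a stress-induced repressor, was 1.84-fold higher with TNF at 5367 ± 121 against 2918 ± 72.0 (mean ± SD, n = 3; limma adjusted p = 3.53e-11).

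Upstream of ATF4, the kinases that phosphorylate eIF2 and related subunits moved in both directions. Of 7 genes, 3 rose and 3 fell without TNF, and 1 rose and 4 fell with TNF (4 rose and 2 fell when scaled to total reads). Over all genes on the deposited scale, 27.6% were called higher and 29.3% lower without TNF, and 26.5% and 30.8% with TNF. Scaled to total reads, 7038 of 11717 genes were called higher and 1716 lower with TNF. Eif2ak3, the kinase PERK that senses misfolded protein, was 1.53-fold lower without TNF (limma adjusted p = 5.18e-06). Eif2ak4, the kinase GCN2 that senses uncharged tRNA, was 1.56-fold higher with TNF (limma adjusted p = 1.55e-05). The largest change was in Eif2ak2, the interferon-induced kinase PKR, at 6626, 6476 and 6763 in TNF-treated Lyz2cre and 1402, 1387 and 1559 in TNF-treated Klf6-deleted libraries, 4.57-fold lower (limma adjusted p = 3.17e-15). Ppp1r15b, which encodes the constant counterpart of GADD34, was 1.55-fold lower with TNF (limma adjusted p = 2.12e-09). These are transcripts, and the activity of the kinases was not measured.

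Genes of the other branches of the endoplasmic reticulum stress response had no common direction. Of 17 genes linked to ATF6 and XBP1, 4 rose and 6 fell without TNF (11 and 5 scaled to total reads), with a median log2 change of -0.01. With TNF 5 rose and 6 fell (12 and 3 scaled to total reads). At total-read scaling the median with TNF was 0.27, beside 0.32 over all genes. On the deposited scale these counts were near the shares over all genes, 27.6% higher and 29.3% lower without TNF and 26.5% and 30.8% with it. Hspa5, the main chaperone of the endoplasmic reticulum, was at 10498 ± 138 in Lyz2cre and 10423 ± 97.1 in Klf6-deleted cells without TNF (mean ± SD, n = 3), and was 1.71-fold lower in Klf6-deleted cells with TNF (limma adjusted p = 4.33e-10). Herpud1, of the degradation machinery, was 1.92-fold lower and the chaperone Hyou1 1.40-fold higher without TNF (limma adjusted p = 2.06e-10 and 7.54e-09). Dnajb9 and Xbp1 were 1.36- and 1.33-fold lower (limma adjusted p = 6.80e-06 and 1.34e-07). All 5 mitochondrial chaperones and proteases rose without TNF, with small changes (median log2 change 0.30), led by Hspa9 at 1.39-fold and Hspd1 at 1.34-fold (limma adjusted p = 1.05e-09 and 7.10e-08). With TNF 4 of these 5 rose and 1 did not pass the test (median 0.15), and all 5 rose when scaled to total reads. With 1 library left out, 2 to 4 rose with TNF.

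**Figure D3:**
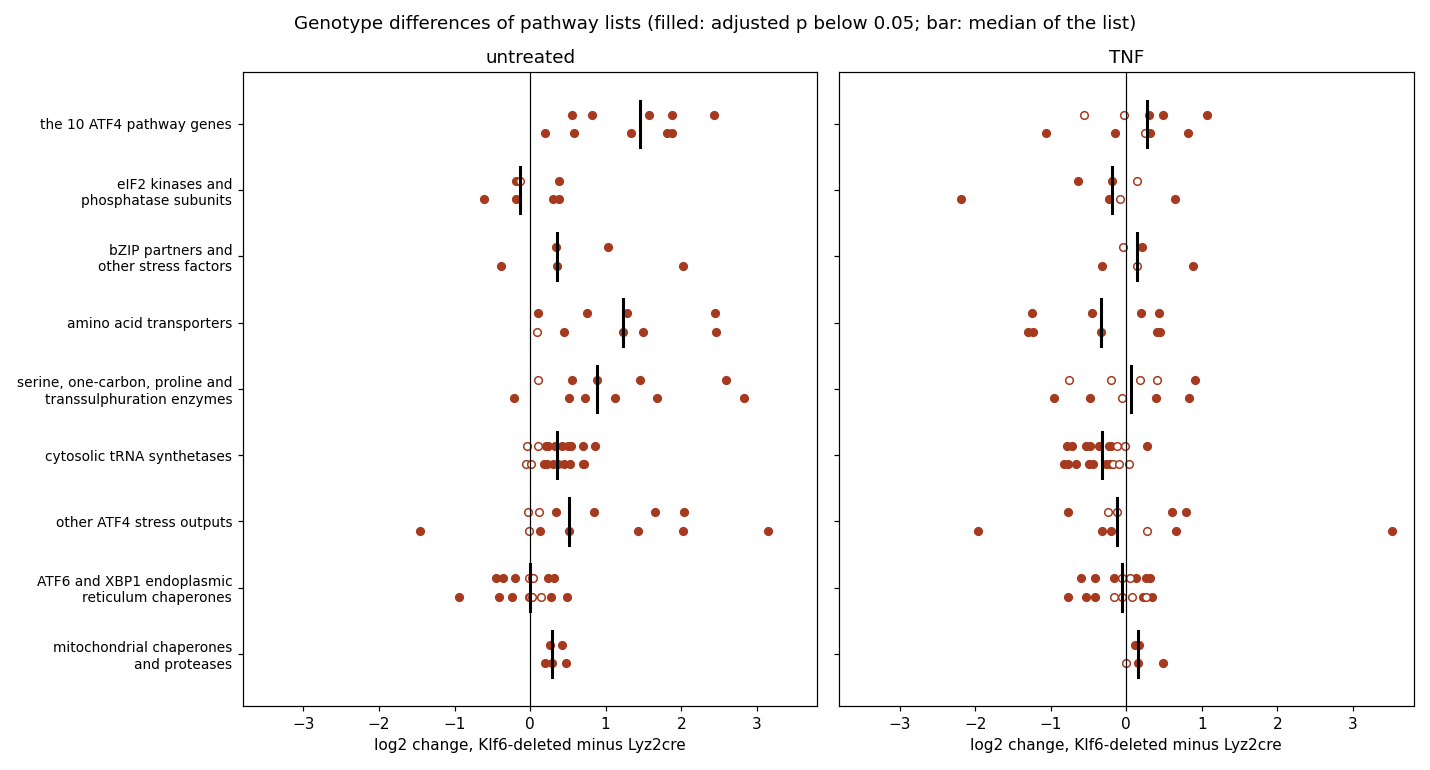
Log2 change of Klf6-deleted minus Lyz2cre cells for each gene tested (points, filled where the limma adjusted p is below 0.05) of the 10 genes and of 8 related lists, without TNF (left) and with TNF (right), with a bar at the median of each list. On the deposited scale, transporters and tRNA synthetases have medians of 1.22 and 0.35 on the left and of -0.33 and -0.32 on the right. The genes linked to ATF6 and XBP1 lie around 0 in both on that scale. Scaled to total reads, the medians with TNF are -0.0033 for transporters, 0.01 for synthetases and 0.27 for the genes linked to ATF6 and XBP1. The median over all genes at that scaling is 0.32.

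The genes whose levels ran most alike over the 12 libraries were found by the Pearson correlation of log2(value + 1) over 12347 named genes. The 12 libraries form 4 groups in separately normalized tables, so these values mostly compare group means. For Asns they were Mars (r = 0.997) and Mthfd2 (0.993), both of the amino acid lists above, followed by Serpinb9, Apol9b and Map4k3 (0.991 to 0.989). For Atf4 they were Klra2, Htra1, Vcan, Cacnb3 and Sept11 (0.988 to 0.977). Vcan, an extracellular matrix proteoglycan, is also on the list of monocyte markers. For Ddit4 they included Pkm, Bsg, Arg1 and Afdn (0.987 to 0.982).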

How the data were processed

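Total RNA of 12 macrophage libraries was sequenced after ribosomal RNA removal with a stranded kit, per the labels' protocols. Cufflinks, GRCm39 and mm10 are named without role or version, per the submitters' processing notes. Counter, aligner, annotation and strand setting were not given in the sources used here. The authors deposited, per treatment, 1 table of signal values that had been normalized by library. Every deposited value was a whole number of reads divided by 1 factor per library (100% of values, largest deviation 5.20e-05 reads, tolerance 0.001), and this factor matched the median-of-ratios size factor of its table.

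Symbols came from a table that named 22867 of 22896 and 21411 of 21437 identifiers, positions from GENCODE vM21 (GRCm38) and promoters from RefSeq. Genes reaching 1 CPM in 3 or more libraries were fitted with limma 3.58.1 (R 4.3.3, mean-variance trend, pseudocount 1) within each table. The contrast of genotype differences was fitted over all 12 libraries. Benjamini-Hochberg adjustment ran over all genes, with a threshold of 0.05. TNF ratios were not tested. The 10 genes and all lists were chosen with earlier results of these data known. Named genes were the 10, Klf6, up to 4 genes per list and comparison with the largest called change, of which the text gives most, and the 5 genes most like Atf4, Asns and Ddit4, of which 1 is not reported here.

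Libraries were not paired by replicate number. Alternatives were pseudocount 5, no filter on low values, scaling to total reads, edgeR 4.0.16 quasi-likelihood with TMM and DESeq2 1.42.0 on the recovered reads, a replicate block and each library left out. Total-read and TMM scaling of the TNF ratios and of the group order were added after seeing the data. On the recovered reads edgeR called 3662 genes higher and 3557 lower without TNF, and 3428 and 3279 with TNF. The fits were tested on simulated data. All 12 value columns were used. Python 3.11.15 was used for tables and figures.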

Additional observations from a re-analysis of the deposited data

Results flagged for a closer look

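The genotype difference of 8 of the 10 genes differed between TNF-treated and untreated cells by the test of the difference itself (limma over 12 libraries, Benjamini-Hochberg adjusted p below 0.05), against 24.9% of all genes with a negative contrast that passed. The log2 contrasts were -0.74 for Atf4, -0.25 for Ddit3, -1.37 for Ddit4, -1.33 for Trib3, -2.45 for Chac1, -2.63 for Asns, -1.37 for Psat1 and -1.63 for Phgdh. Within these 8 the genotype difference was positive without TNF in each gene. With TNF it was negative past the test for Atf4 and Asns, positive past the test for Ddit3, Ddit4 and Trib3, and did not pass for Chac1, Psat1 and Phgdh. The contrast of Ddit3 lost its call in several alternatives. The stromal markers also had a lower genotype difference with TNF, in 8 of the 11 tested, and their part in these contrasts was not tested.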

How the results depend on the processing

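Counts of the 10 genes and of all genes gave 204 values within 1.5 times the main count and 6 outside it, all 6 with scaling to total reads. With that scaling the genes called lower without TNF over the whole table numbered 2408, those called higher and lower with TNF 7038 and 1716, and those with a positive contrast 4930. Among the 10 genes it left 1 lower with TNF (Asns) and gave 1 positive contrast (Ppp1r15a). It turned the TNF change of Atf4 to 0.18 and of Psat1 to 0.29. The TNF change of Psat1, not called in any fit, was also 0.013 with edgeR and ran from -0.11 to 0.067 with 1 library left out. The contrast of Sesn2, near 0, was -0.0015 with pseudocount 5, -0.034 with edgeR and -0.027 with DESeq2, and ran from -0.10 to 0.11 with 1 library left out. The cause of these shifts was not tested. With 1 library left out, 9 to 10 of the 10 genes rose without TNF, 7 to 8 were called with TNF and 7 to 8 had a called contrast. Over all genes, 2710 to 3366 were then called higher and 3376 to 3536 lower without TNF. With TNF these ranges were 2380 to 3062 and 3216 to 3502. The contrast was positive for 2868 to 3150 genes and negative for 2933 to 3262. Log2 TNF ratios in Klf6-deleted cells turned positive for Atf4 (0.14 with total reads, 0.22 with TMM), Ddit3 (0.0062 and 0.092) and Trib3 (0.051 with TMM).

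With the replicate number as a block, 10 genes were called without TNF, 7 with TNF and 7 in the contrast, which lost Ddit3 (adjusted p = 0.0707). Deviations of same-numbered libraries correlated at 0.152, -0.0378 and 0.158 without TNF and at -0.0209, -0.0123 and -0.0295 with TNF. With so few libraries, these values do not show whether same-numbered libraries share an origin. Over all genes the block gave 3526 higher and 3758 lower of 12715 without TNF, and 2988 and 3485 of 11717 with TNF. The contrast with the block was positive for 3041 and negative for 3160 of 13062 genes. Of the 6 same-numbered pairs, 2 correlated best with their own number, both untreated.

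Chac1 had the lowest counts of the 10 genes, with 16.4 to 97.8 normalized counts per library.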

Other observations

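Stc2, a secreted glycoprotein of the stress response, was listed at 0 in all 3 TNF-treated Lyz2cre libraries and at 7.47, 8.18 and 9.72 normalized counts in the TNF-treated Klf6-deleted libraries. It was at 8.75, 6.05 and 10.9 in untreated Lyz2cre and at 30.8, 37.9 and 44.7 in untreated Klf6-deleted libraries. Slc7a11, the cystine carrier of glutathione synthesis, was at 55.4 ± 3.51 in untreated Lyz2cre cells and at 131 ± 18.0 in untreated Klf6-deleted cells (mean ± SD, n = 3). With TNF it was at 1618 ± 179 and 2177 ± 220.5 in the same order, higher in Klf6-deleted cells in both tables (limma, adjusted p = 5.14e-06 and 1.94e-04). Slc7a11 was chosen after its values were seen, for its level across tables with TNF, which was far above the untreated level in each genotype, without a test.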
